A study of Drosophila melanogaster with 6 samples.

Results

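The cytosolic ribosomal protein (RP) genes were examined in the Drosophila wing imaginal disc, comparing the regeneration blastema with undamaged wing pouch. They were picked by name alone, as the genes whose symbol begins with RpL or RpS followed by a digit or P, which gave 85 of the 14239 genes profiled, 50 of the large subunit and 35 of the small subunit. The ablated group (3 replicates) had the genotype nub-GFP/+; rn-Gal4, GAL80ts, UAS-rpr/+, and the mock-ablated control (3 replicates) had the genotype nub-GFP/+; rn-Gal4, GAL80ts/+, so that nub-GFP, rn-Gal4 and the temperature-sensitive repressor GAL80ts were present in both. All larvae were reared at 18 °C and moved to 30 °C for 24 h early in the third larval instar, which in the ablated group let rn-Gal4 drive the pro-apoptotic gene reaper (rpr) in most of the wing pouch, and GFP-positive cells were sorted after 24 h of recovery. Each replicate was a pool of discs from several dissection days, with more discs per ablated replicate, and the sort rested on GFP from a MiMIC transposon in the nubbin (nub) locus, a gene of the wing pouch.

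A ribosome consists of a large and a small subunit, and each subunit is built from ribosomal RNA and a fixed set of proteins, nearly all present as a single copy per ribosome. The mRNAs of these proteins are among the most abundant in growing cells, and their production is tied to growth signaling through Myc and TOR. In Drosophila, loss of 1 copy of many RP genes gives the Minute phenotype of slow development and short bristles, and Minute cells are eliminated from wing discs by neighboring wild-type cells.

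The deposited table holds 1 FPKM (mapped fragments normalized for the length of the transcript and the size of the library) per gene and group, the authors' value over the pooled replicates. No value for a single replicate was used, so no difference below was tested and none carries an error, and the read depth behind a gene is unknown. A log2 ratio is the blastema FPKM over the control FPKM, and it was computed for genes with a mean of the 2 group values of at least 1 FPKM and neither value at 0, which left 8402 genes in all and 80 RP genes, 47 large and 33 small. Summed over all genes, FPKM came to 889990 in the blastema and 1081834 in the control, a log2 ratio of -0.28, so the same level of RP mRNA relative to all mRNA would appear at a log2 ratio of -0.28 and not of 0. The median log2 ratio of all 8402 genes was -0.04. In sorted pools of cells, fewer cells of a type and less RNA per cell cannot be told apart.

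The identity of the sorted cells was checked with marker genes. Of 5 pouch markers (nub, rn, vg, sd and Dll), 4 were lower in the blastema by at least 0.5 on the log2 scale, against 12.9% of all genes. The exception was sd, at 95.0 FPKM in the blastema and 87.6 FPKM in the control. The list summed to 217 FPKM in the blastema and 301 FPKM in the control. Both hinge markers (zfh2 and Dr) were higher, with a sum of 118 FPKM in the blastema and 43.3 FPKM in the control, as were all 3 notum markers (tup, eyg and pnr; 24.6 and 11.3 FPKM) and all 3 myoblast markers (twi, Mef2 and htl; 18.7 and 4.72 FPKM). Of all 8402 genes, 3951 were higher. Of genes outside the RP list with a mean of 1 to under 10 FPKM, 2113 of 2969 were higher, and 34.9% were higher by at least 0.5. The 3 hemocyte markers in the table (Hml, Pxn and srp, of 4 listed) summed to 1.75 FPKM in the blastema and 1.11 FPKM in the control, with the defining gene Hml at 0.061 and 0.013 FPKM. The 2 tracheal markers (trh and btl) differed in opposite directions and summed to 6.98 and 22.9 FPKM, the 2 fat body markers (Lsp1beta and Fbp1) to 3.54 and 1.31 FPKM, and the glial marker repo was at 1.43 FPKM in the blastema and 0.834 FPKM in the control. The part of these differences in cell makeup in the RP values was not tested.

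RP mRNAs made up close to the same share of the profile in both groups. Together the 85 genes accounted for 437310 of the summed FPKM in the blastema and 539429 in the control, which is 49.1% and 49.9% of the total, a difference of -0.726 percentage points. The large subunit genes held 31.3% in the blastema and 32.0% in the control. The small subunit genes held 17.8% in the blastema and 17.9% in the control. RP genes took 8 of the 10 highest places by FPKM in each group, 45 of the first 50 in the blastema and 44 in the control, and 75 of the first 100 in each. FPKM divides by transcript length, so these shares count transcripts more nearly than reads, and the shortest RP mRNAs weigh heavily in them. Genes listed at 0 in both groups, such as RpL15 and Ef1alpha48D, are missing from these shares and ranks.

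Among the 85 genes, 76 (46 large and 30 small) had a mean of at least 1000 FPKM. Their levels spanned 1156 to 38828 FPKM in the blastema, with a median of 4988, and 1540 to 52648 FPKM in the control, with a median of 6072. Most lay close together, since the upper quartile was 1.44 times the lower quartile in the blastema and 1.46 times in the control. The order of the levels was nearly the same in both groups, with r = 0.995 and rho = 0.983 between the log2 FPKM over the 76 genes, which are not independent replicates. Another 4 genes were measured at lower levels (RpS15Ab, RpS19b, RpS5b and RpL22-like), 3 lay under a mean of 1 FPKM (RpS28a, RpS10a and RpL10Aa), and 2 were listed at 0 in both groups (RpL15 and RpL37b). The 5 genes of the last 2 kinds have no log2 ratio here, and all 9 apart from RpL15 belong to a gene pair.

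**Figure D1:**
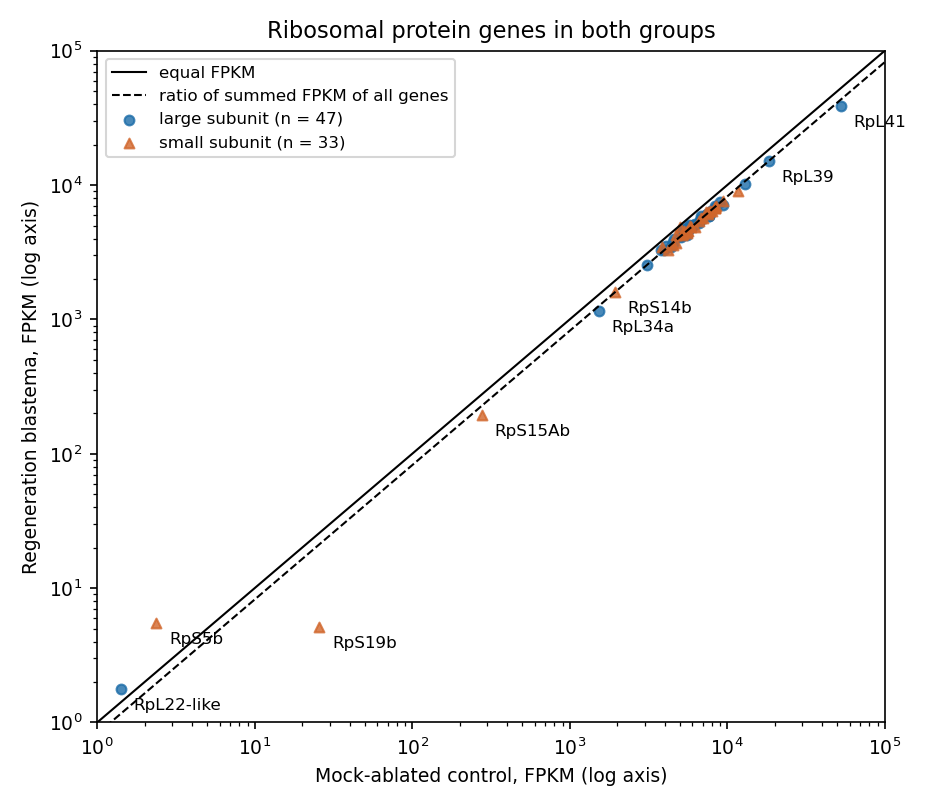
FPKM of the 80 compared RP genes in the blastema (vertical axis) and in the control (horizontal axis), both on log axes, with large subunit genes as circles and small subunit genes as triangles. The 76 abundant genes lie below the solid line of equal FPKM and along the dashed line, which marks the log2 ratio of the summed FPKM of all genes, -0.28.

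The FPKM of the RP genes were lower in the blastema by a nearly uniform amount. The median log2 ratio was -0.29, with quartiles of -0.32 and -0.26, and 78 of the 80 compared genes lay below the control value, against 53.0% of all genes and 84.6% of the 861 other genes with a mean of at least 100 FPKM. Only 2 (RpS19b and RpS15Ab) were lower by at least 0.5, which is 2.5% of the 80, while 12.9% of all genes and 30.9% of those 861 were lower by that much. The single gene that was higher by at least 0.5 was RpS5b, 1.25% of the 80, against 17.2% of all genes and 3.14% of those 861. The large subunit had a median of -0.29 over 47 genes, with quartiles of -0.32 and -0.25. The small subunit had a median of -0.30 over 33 genes, with quartiles of -0.32 and -0.27.

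All 76 abundant RP genes were below their control value. The difference in percent of the control ranged from -26.2% to -2.93% with a median of -18.1%, and the log2 ratios had an SD of 0.064 across genes. RP genes supply 49.1% of the summed FPKM in the blastema and 49.9% in the control, which draws the log2 ratio of the sums toward their own, so the sum over genes outside the list, with a log2 ratio of -0.26, was used beside it. Of the 76 genes, 64 (84.2%) lay within 0.1 of that value, 40 of the 46 large and 24 of the 30 small, against 12 of the 48 other genes with a mean of at least 1000 FPKM. Those 48 genes had a median log2 ratio of -0.32, close to that of the RP genes, but an interquartile range of 0.40, against 0.062 for the 76 RP genes. The 71 mitochondrial RP genes, whose products build the separate ribosome of mitochondria, had a median of -0.36 and an interquartile range of 0.19. Their median level was 35.8 FPKM in the blastema and 46.1 FPKM in the control, far under that of the cytosolic genes. Of these 71, 12 (16.9%) were lower by at least 0.5. Lower by that much were 12.9% of all genes and 12.7% of genes outside the list with a mean of 10 to under 100 FPKM.

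The sign of the RP difference depended on the scaling between the groups. When both groups were scaled to the same summed FPKM, the median log2 ratio of the 80 genes was -0.01, with 42 genes below 0 and 38 above. The median of all 8402 genes was then 0.24, with 2411 below 0 and 5991 above. A value near 0 is largely set by that scaling, since RP genes hold so much of the sum, and with the groups scaled to the same sum over genes outside the list the RP median was -0.03, with 59 genes below 0 and 21 above. When the ratios were centred on the median of all genes, the RP median was -0.25, with 78 genes below 0 and 2 above. When they were centred on the median of the 861 other genes with a mean of at least 100 FPKM (-0.37), the RP median was 0.08, with 10 genes below 0 and 70 above. Every statement of a lower or higher FPKM in the text refers to the deposited values.

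**Figure D2:**
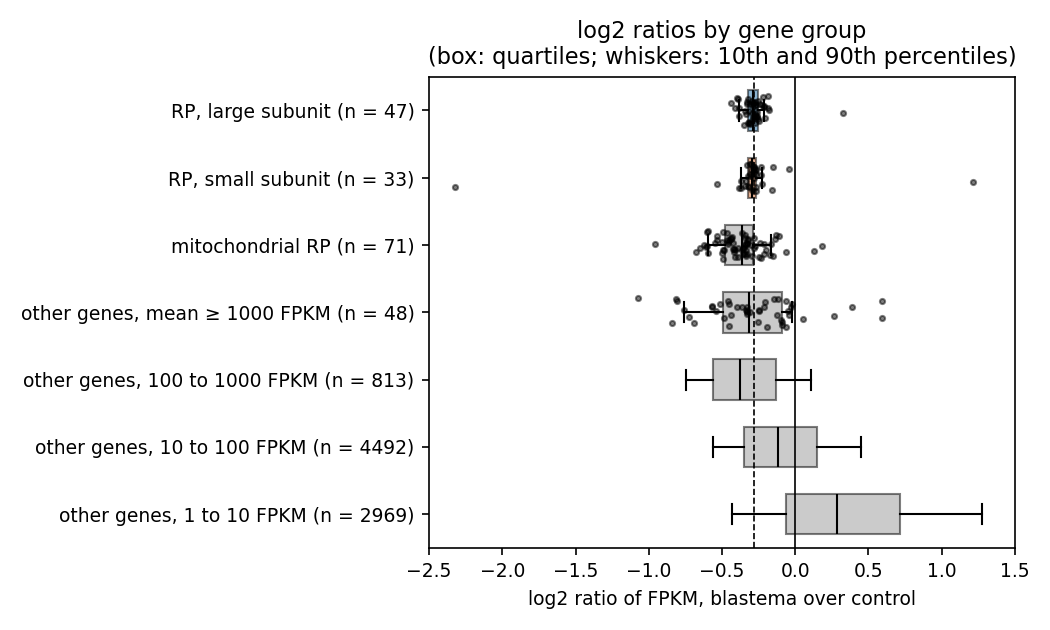
Log2 ratios of FPKM, blastema over control, for large and small subunit RP genes, mitochondrial RP genes and other genes in bins of mean FPKM; boxes show quartiles and whiskers the 10th and 90th percentiles, points show single genes in the upper 4 rows, and the dashed line marks -0.28. The boxes of the RP genes are the narrowest, and ImpE2, at -3.97 among the 48 other genes of at least 1000 FPKM, lies outside the axis.

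Within the large subunit, the abundant genes ran from -0.44 to -0.18. RpL41, which encodes the smallest ribosomal protein, was both the most abundant gene of the table and the RP gene of at least 1000 FPKM with the lowest ratio, at 38828 FPKM in the blastema and 52648 FPKM in the control (log2 ratio -0.44). It held 4.36% of the summed FPKM in the blastema and 4.87% in the control, and without it the RP share was 44.8% and 45.0%. The next lowest were RpL34a at 1156 and 1540 FPKM (-0.41), RpL38 at 7089 and 9350 FPKM (-0.40), RpLP2 at 5857 and 7662 FPKM (-0.39) and RpL30 at 4235 and 5519 FPKM (-0.38). RpL38 is known from the mouse for a role in the translation of Hox mRNAs, and in Drosophila its loss is Minute.

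At the other end of the large subunit stood RpL22 at 4600 FPKM in the blastema and 5217 FPKM in the control (-0.18). RpL13 followed at 5021 and 5721 FPKM (-0.19), RpL3, a core protein near the peptidyl transferase center, at 4676 and 5329 FPKM (-0.19), and RpL11, which joins the ribosome with RpL5 and the 5S RNA, at 5869 and 6767 FPKM (-0.21). RpL22-like had the highest log2 ratio of the subunit but a low level and is described with its pair. After RpL41, the most abundant large subunit genes were RpL39, a small protein of the exit tunnel, at 15025 FPKM in the blastema and 18308 FPKM in the control (-0.29), and RpL29 at 10217 and 12989 FPKM (-0.35). RpL32, widely used under the name rp49 as a reference gene in expression studies, was at 6727 FPKM in the blastema and 8419 FPKM in the control (-0.32), slightly below the lower quartile of the subunit.

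The stalk of the large subunit recruits translation factors and is made of RpLP0 as a base with several copies of RpLP1 and RpLP2. RpLP0 was at 2532 FPKM in the blastema and 3110 FPKM in the control (-0.30). RpLP1 was at 6421 and 7854 FPKM (-0.29), and RpLP2 was at 5857 and 7662 FPKM (-0.39). The mRNAs of the proteins present in several copies stood above that of the base in both groups. RpLP1 was at 2.54 times RpLP0 in the blastema and 2.53 times in the control. RpLP2 was at 2.31 times in the blastema and 2.46 times in the control. This order is not particular to the stalk, since RpLP0 was low among the abundant RP genes. The median of those 76 genes was 4988 FPKM in the blastema and 6072 FPKM in the control. The sum of RpLP1 and RpLP2 was 4.85 times RpLP0 in the blastema and 4.99 times in the control.

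Within the small subunit, the abundant genes ran from -0.38 to -0.04. RpS27A, which is made as a fusion with ubiquitin, was the most abundant of them and had the lowest ratio, at 9045 FPKM in the blastema and 11787 FPKM in the control (-0.38). The other ubiquitin fusion, RpL40 of the large subunit, was at 4628 and 5607 FPKM (-0.28). RpS14a, at 3274 and 4232 FPKM (-0.37), and RpS12, which in Drosophila is needed for the elimination of Minute cells, at 4848 and 6261 FPKM (-0.37), came next. RpS30 at 7583 and 9411 FPKM (-0.31) and RpS13 at 7027 and 8520 FPKM (-0.28) followed RpS27A in abundance.

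RpS3A lay closest to its control level of the 76 abundant genes, at 4883 FPKM in the blastema and 5030 FPKM in the control (-0.04), and it is the only RP gene of the list on chromosome 4 (86745 to 87863, as all coordinates here in the genome build the authors aligned to). With the groups scaled to the same summed FPKM, its log2 ratio was 0.24. RpS27 at 3462 and 3851 FPKM (-0.15), RpS10b at 4263 and 4754 FPKM (-0.16) and RpS15 at 6312 and 7375 FPKM (-0.22) stood next to it. The small subunit gene RpS6, whose product is the classical substrate of S6 kinase, was at 4526 FPKM in the blastema and 5559 FPKM in the control (-0.30). The medians by chromosome arm were close to each other, at -0.28 on 2L (15 genes), -0.31 on 2R (19), -0.28 on 3L (12), -0.31 on 3R (19) and -0.27 on X (14).

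**Figure D3:**
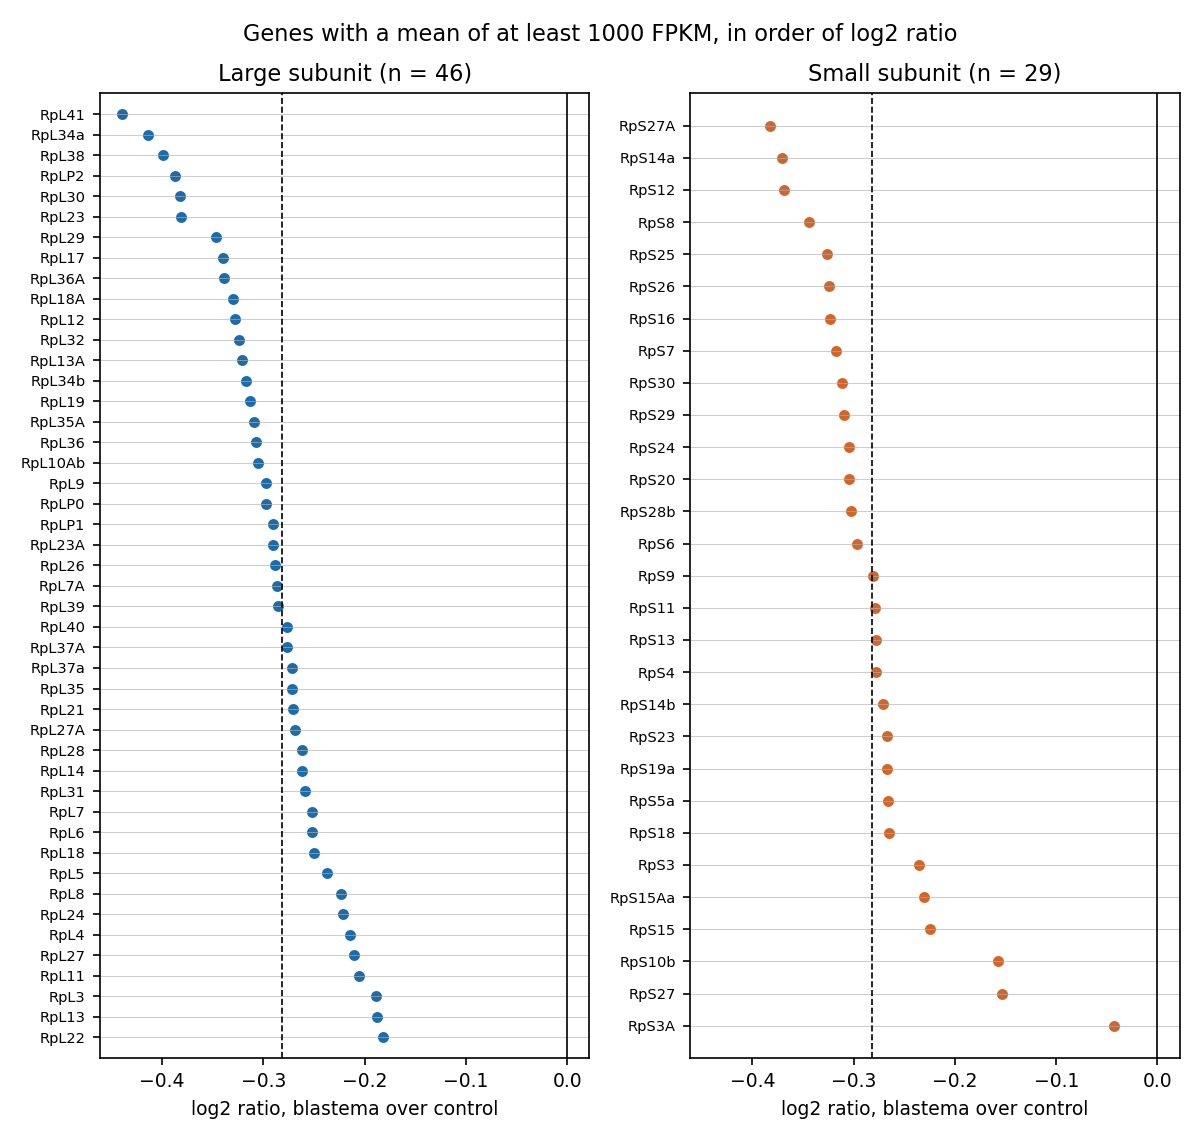
Log2 ratio of blastema over control FPKM for the 46 large and 29 of the 30 small subunit genes with a mean of at least 1000 FPKM, in order of the ratio, with the lowest at the top; the solid line marks 0 and the dashed line -0.28. All points lie left of 0, from RpL41 at -0.44 to RpS3A at -0.04.

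A list of 14 genes known for the Minute phenotype was drawn up from both subunits (among them RpS3, RpS3A, RpS6, RpS13, RpL5, RpL9, RpL14, RpL19 and RpL38). All 14 were below the control value and none by 0.5 or more. The median was -0.29, the same as over all 80 RP genes, and the range was -0.40 for RpL38 to -0.04 for RpS3A. Below the control value lay all 76 abundant RP genes, 53.0% of all genes and 84.6% of the 861 other genes with a mean of at least 100 FPKM. Lower by at least 0.5 were 12.9% of all genes and 30.9% of those 861, and none of the 76. The 14 thus did not stand apart from the other abundant RP genes. RpS3 was at 4955 FPKM in the blastema and 5833 FPKM in the control (-0.24). The lowest level of the list in the blastema was that of RpL9, at 4145 FPKM, against 5095 FPKM in the control (-0.30), and the highest of those 14 abundant mRNAs in the blastema was that of RpL14, at 7465 FPKM, against 8951 FPKM in the control (-0.26).

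There were 10 pairs of genes counted as close copies of 1 ribosomal protein, and in each of the 9 pairs with no copy listed at 0 in both groups 1 copy supplied most of the FPKM in both groups. Over the 10 pairs the less abundant copies gave 5.91% of the FPKM in the blastema and 6.25% in the control, with RpL37b entered as listed, at 0. Reads that match both copies were divided between them by the authors' multi-read correction, so the values of single copies are uncertain. Several of the less abundant copies, among them RpS5b, RpS19b, RpS10a and RpL22-like, are known chiefly from the germ line.

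In 2 pairs both copies were abundant. RpS14b was at 1605 FPKM in the blastema and 1937 FPKM in the control (-0.27) beside RpS14a, and its share of the pair was 32.9% and 31.4%. These genes are tandem copies on chromosome X (RpS14a at 7827779 to 7828713 and RpS14b at 7828937 to 7829832), with 223 bases between them. RpL34a (chromosome 3R, 21884142 to 21884989) gave 24.1% of its pair in the blastema and 25.4% in the control, beside RpL34b at 3636 and 4531 FPKM (-0.32). The less abundant copy was thus slightly above its partner in log2 ratio for RpS14b, by 0.10, and below it for RpL34a, by -0.10.

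RpS15Ab, on chromosome 2R (6709176 to 6710826), was expressed at an intermediate level, 193 FPKM in the blastema and 279 FPKM in the control (-0.53), while RpS15Aa was at 4563 and 5355 FPKM (-0.23). RpS15Ab supplied 4.05% of the pair in the blastema and 4.95% in the control. Its locus in the table also holds another gene.

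The largest differences among RP genes were those of 2 scarce copies, and they ran in opposite directions. RpS19b (chromosome 3R, 19758451 to 19759252) was at 5.14 FPKM in the blastema and 25.7 FPKM in the control (log2 ratio -2.32), while RpS19a was at 4862 and 5849 FPKM (-0.27). RpS5b (chromosome 3R, 10726154 to 10727310) was at 5.53 FPKM in the blastema and 2.38 FPKM in the control (1.22), while RpS5a was at 6427 and 7728 FPKM (-0.27). Even so, RpS19b was 0.106% of its pair in the blastema and 0.438% in the control, and RpS5b was 0.0859% and 0.0307%, so neither weighed on the total. RpL22-like, at 1.77 FPKM in the blastema and 1.41 FPKM in the control (0.33), was 0.0384% of its pair in the blastema and 0.0270% in the control. With 1 FPKM added to both groups the log2 ratio was -2.12 for RpS19b and 0.95 for RpS5b.

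Levels of germ line genes were compared because these copies are known from that tissue. The marker vas was at 1.09 FPKM in the blastema and 0.829 FPKM in the control, nos at 0.446 and 0.224, bam at 6.26 and 6.27, and ovo at 35.6 and 30.1. The 4 markers summed to 43.4 FPKM in the blastema and 37.4 FPKM in the control, and most of that sum was ovo. The sum thus largely follows ovo, and whether ovo stands for germ line RNA in sorted disc cells was not tested. Of the other markers, vas and nos were higher in the blastema at low levels, and bam was nearly equal. RpS5b and RpL22-like were higher and RpS19b was lower, and the part of germ line RNA in these values was not tested.

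In the other 4 pairs 1 copy was under a mean of 1 FPKM or listed at 0. RpS10a was at 0.218 FPKM in the blastema and 0.493 FPKM in the control, beside RpS10b, and RpS28a was listed at 0 in the blastema and at 0.893 FPKM in the control, beside RpS28b at 5396 and 6655 FPKM (-0.30). RpL10Aa was at 0.031 FPKM in the blastema and listed at 0 in the control, beside RpL10Ab at 6907 and 8536 FPKM (-0.31). RpL37b was listed at 0 in both groups, which was treated as a failed estimate and not as a level, beside RpL37a at 3288 and 3971 FPKM (-0.27). A further gene, RpL37A on 2L, differs from RpL37a on X only in the case of its last letter and encodes another protein of the large subunit, and it was at 4312 FPKM in the blastema and 5222 FPKM in the control (-0.28).

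**Figure D4:**
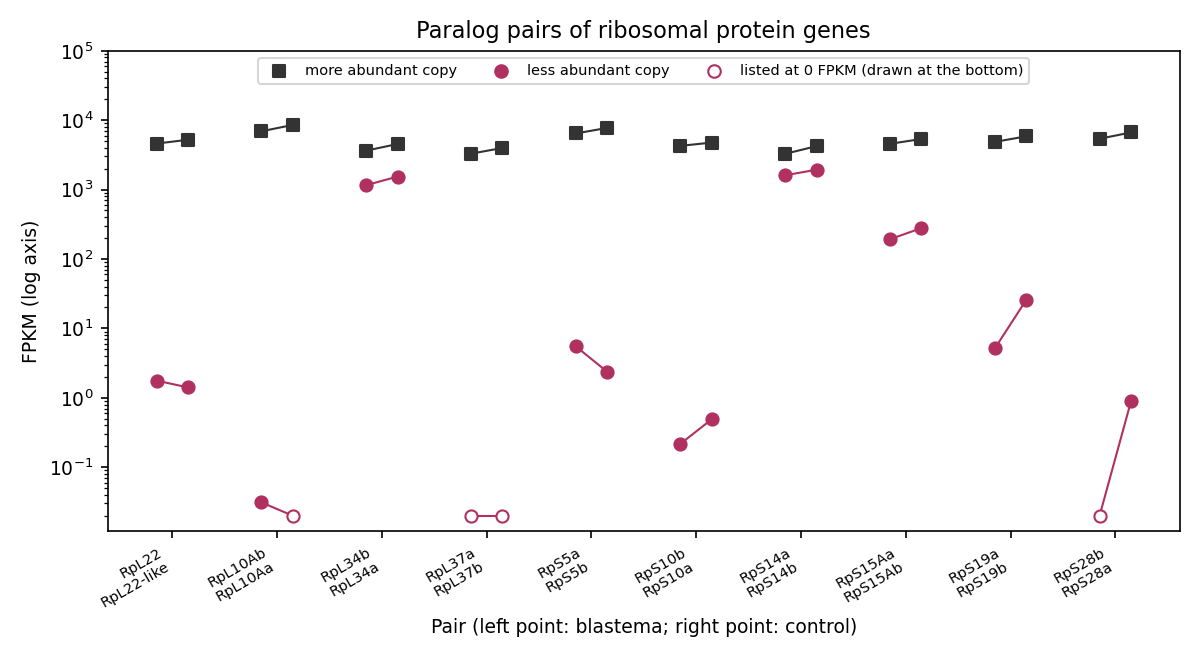
FPKM of both copies of the 10 RP gene pairs on a log axis, with the blastema on the left and the control on the right of each pair; squares mark the more abundant copy, circles the less abundant one, and open symbols values listed at 0. RpS19b is lower in the blastema, 5.14 against 25.7 FPKM, and RpS5b is higher, 5.53 against 2.38 FPKM, while all 10 squares lie slightly lower in the blastema.

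RpL15, a core protein of the large subunit, was listed at 0 in both groups. Its locus in the table joins chromosome 3L with an unplaced scaffold, and each of the 73 genes with a locus of that kind was listed at 0 in both groups, so the value of RpL15 was treated as a failed estimate and not as a level. In all, 1656 of the 14239 genes were listed at 0 in both groups.

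Ribosomal proteins that carry other gene names were outside the name rule but were looked up, with the set completed after the values were seen. Qm, the RpL10 gene, was at 6369 FPKM in the blastema and 7871 FPKM in the control (-0.31). Of the small subunit, sop (RpS2) was at 5462 and 6889 FPKM (-0.33), and sta (RpSA, also known as stubarista) was at 5198 and 6515 FPKM (-0.33). These lay within the range of the named genes. The exception was oho23B, the RpS21 gene, at 4238 FPKM in the blastema and 6286 FPKM in the control (-0.57), a log2 ratio below that of every RP gene with a mean of at least 1000 FPKM. Rack1, a scaffold protein bound to the small subunit, was at 4204 and 5013 FPKM (-0.25), and with Qm, sop, sta and oho23B included the RP share was 51.5% in the blastema and 52.4% in the control.

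The level and the log2 ratio were set against coding length, taken from a current annotation. Over the 76 abundant genes the log2 ratio was lower for shorter genes, with r = 0.43 and rho = 0.36 against log2 coding length, and without RpL41 the values were 0.35 and 0.34. The difference was small in size, since the 25 shortest genes (75 to 405 bases) had a median log2 ratio of -0.30 and the 25 longest (558 to 1248 bases) had one of -0.28. The mean level was higher for shorter genes, with r = -0.44 and rho = -0.21, and without RpL41 the values were -0.26 and -0.18. These are descriptions across genes that share 2 sets of pooled libraries, and they carry no test. FPKM of transcripts as short as that of RpL41 depend strongly on how their effective length was estimated.

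**Figure D5:**
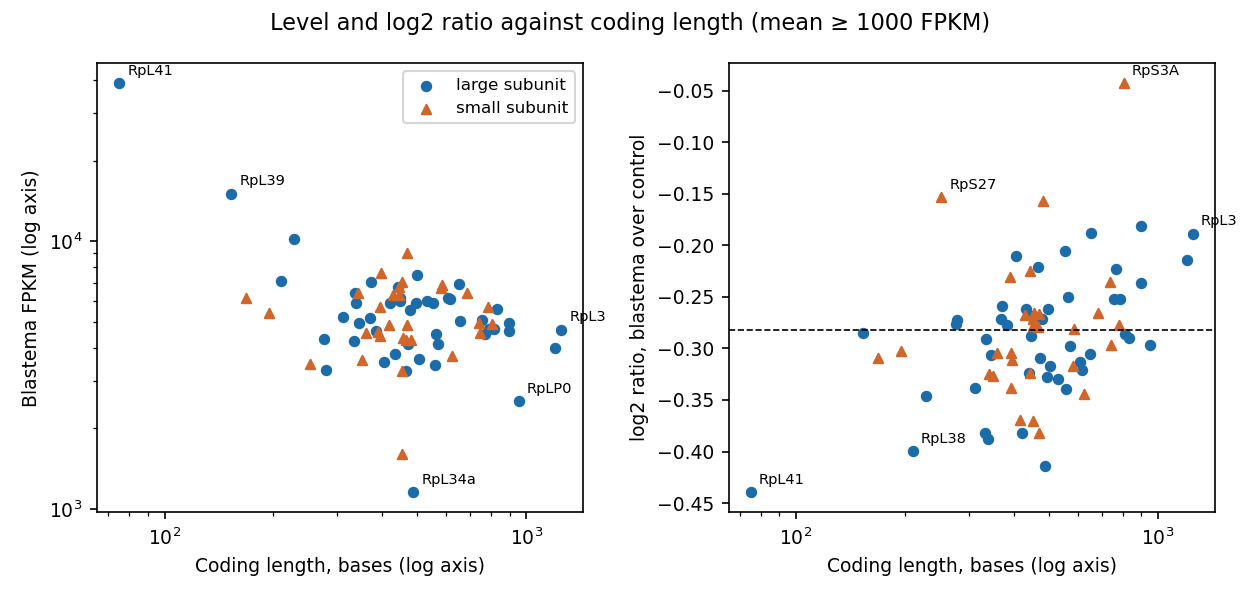
Blastema FPKM (left) and log2 ratio of blastema over control (right) against coding length in bases, on log axes except for the ratio, for the 76 RP genes with a mean of at least 1000 FPKM; circles are large and triangles small subunit genes, and the dashed line marks -0.28. RpL41, with 75 coding bases, is the highest in level and the lowest in ratio.

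Values of genes that overlap others are uncertain, because the use of strand in the counting was not given in the sources used here. The table places 38 of the 85 RP genes at a locus shared with at least 1 other gene, such as the small nucleolar RNA genes in their introns. The 37 of these that could be compared had a median log2 ratio of -0.30, and the 43 compared genes that stood alone had a median of -0.28.

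Genes that act around the ribosome were described from lists of their own. Of 19 genes for ribosome production found in the table (of 20 listed), 13 were lower and 6 higher in the blastema, with a median log2 ratio of -0.09 and an interquartile range of 0.32, against 0.066 for the 80 RP genes. Of all genes, 53.0% were lower. In each direction 1 of the 19 (5.26%) passed 0.5, against 12.9% of all genes lower and 17.2% higher by that much. The histone chaperone Nlp was at 867 FPKM in the blastema and 1239 FPKM in the control (-0.51), and dm, the Drosophila Myc gene and a driver of ribosome production, was at 31.7 and 17.9 FPKM (0.82). Fib, the fibrillarin gene of rRNA modification, was at 248 FPKM in the blastema and 260 FPKM in the control (-0.06), and RpI1, the largest subunit of RNA polymerase I, was at 27.0 and 23.4 FPKM (0.21). When both groups were scaled to the same summed FPKM, 1 of the 19 was below 0 and 18 were above, with a median of 0.19, while 5991 of all 8402 genes were above 0, with a median of 0.24.

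Of the translation factors, 20 of 21 listed were in the table and 18 could be compared. Of these, 16 were lower and 2 higher in the blastema, with a median log2 ratio of -0.24. Below the control value lay 53.0% of all genes and 84.6% of the 861 other genes with a mean of at least 100 FPKM. None of the 18 was lower by 0.5, against 12.9% of all genes and 30.9% of those 861. Higher by at least 0.5 were 17.2% of all genes and 3.14% of those 861. Among the 18 only Ef1alpha100E, a minor form of elongation factor 1 alpha, was higher by that much. It was at 4.58 FPKM in the blastema and 2.84 FPKM in the control (0.69). The abundant initiation helicase gene eIF-4a was at 2705 and 2741 FPKM (-0.02), and eIF-5A was at 4096 and 5271 FPKM (-0.36). Ef1alpha48D and eIF-4B were listed at 0 in both groups, which was treated as a failed estimate and not as a level. The authors' software labelled Ef1alpha48D as HIDATA, used for too many reads at a locus, and eIF-4B as NOTEST, used for too few.

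Of 6 regulators of translation and growth, 4 were in the table. Thor, the 4E-BP gene whose product holds back cap-dependent initiation, was at 32.9 FPKM in the blastema and 7.35 FPKM in the control (2.16). S6k, the kinase that phosphorylates RpS6, was at 23.4 and 15.02 FPKM (0.64). Tor was at 13.9 FPKM in both groups, and Xrp1, a transcription factor that in Drosophila acts in Minute cells, was at 360 FPKM in the blastema and 345 FPKM in the control (0.06). All 4 log2 ratios were above 0, that of Tor by only 0.004, and 2 (Thor and S6k) passed 0.5, against 17.2% of all genes. Of genes outside the RP list with a mean of 10 to under 100 FPKM, 1703 of 4492 were higher. By at least 0.5, 8.53% of those 4492 were higher. On the deposited scale the differences of Thor, S6k and dm ran opposite to that of the RP genes. Tor and Xrp1 were nearly equal in both groups.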

How the data were processed

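mRNA-seq was carried out on FACS-sorted nub-GFP cells of ablated and mock-ablated wing discs, with 3 replicates per group and a stranded library kit. The authors trimmed the reads, aligned them with TopHat2 (0.6) to build 5.41 with at most 2 mismatches, estimated FPKM with Cufflinks (0.0.7) with bias and multi-read correction, and normalized libraries geometrically in Cuffdiff. The deposited table gives 1 FPKM per gene and group. Its columns of fold change, test statistic, p-value, q-value and call are the authors' own comparison and were not used. Read counts per replicate were not analysed here, so neither the depth behind a gene nor the spread between replicates is given.

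Log2 ratios were computed without a pseudocount over the whole table, for genes with a mean of at least 1 FPKM and both values above 0, and counted past 0.5 in either direction. RP genes, gene lists and thresholds were chosen with earlier results of these data known. Genes named are both copies of each pair, genes listed at 0, the stalk genes, ubiquitin fusions and Minute list, per subunit the 5 lowest and 5 highest log2 ratios and the 3 most abundant genes, and members of the other lists. RpL32, RpS6 and RpL37A were added after their values were seen, and 1 gene is not reported here by name. Alternatives varied the pseudocount, filter, threshold, scaling and membership. Coordinates are those of build 5.41, counted from 1. Coding lengths came from the annotation BDGP6.54, in which all 85 genes were found, and neither its coordinates nor any sequence was used. The code was tested on simulated data. The tools were numpy 2.4.6 and pandas 2.3.3 for the ratios, matplotlib 3.10.9 for the plots and scipy 1.17.1 for correlations, in Python 3.11.15.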

Additional observations from a re-analysis of the deposited data

How the results depend on the processing

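The RP medians depended on the scaling. With equal summed FPKM the median log2 ratio was -0.0056 over all RP genes, -0.0045 for the large and -0.015 for the small subunit, and with centring on other genes of at least 100 FPKM it was 0.083, 0.084 and 0.074. With equal sums over genes outside the list it was -0.026, -0.025 and -0.036. A pseudocount of 1, other filters, centring on all genes, and leaving out shared loci or gene pairs moved these medians by under 0.1.

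Of the 80 RP genes, 2 were lower by at least 0.5. That count was 1 under equal sums of either kind, under either centring, without shared loci or with a threshold of 1, it was 34 with a threshold of 0.3, and it was 0 without gene pairs or among genes of at least 1000 FPKM. The 1 gene higher by at least 0.5 became 2 under equal sums of either kind, with centring on other genes of at least 100 FPKM or with a threshold of 0.3, and 0 with a mean of at least 10 FPKM, without gene pairs or among genes of at least 1000 FPKM. The less abundant copies gave 11.9% of pair FPKM in the blastema over the 5 pairs alone at their loci and 3.00% over the 9 pairs without RpS14, and 6.32% without the RpL37 pair. These last settings, the sum outside the list and the minimum of 1000 FPKM were chosen after seeing the data.

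No paired analysis was possible because the table holds 1 pooled value per group and no value of a single replicate, and leaving out a replicate in turn was not run for the same reason.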

Other observations

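Many RP genes of Drosophila carry small nucleolar RNA (snoRNA) genes, whose products guide the modification of ribosomal RNA, in their introns. The table places 70 snoRNA genes in the loci of 26 RP genes, and 23 of them were listed at 0 in both groups. Of the 42 that could be compared, 27 were lower and 15 higher in the blastema, while 53.0% of all genes were lower. By at least 0.5, 16 were lower and 7 higher (38.1% and 16.7%, against 12.9% and 17.2% of all genes). The median log2 ratio was -0.24 and the range -1.83 to 1.83. With both groups scaled to the same summed FPKM, 19 of the 42 were below 0 and 23 above, with a median of 0.04. The interquartile range of the 42 was 0.91, against 0.066 for the 80 RP genes. The lowest ratio was that of Psi28S-3327a, at 1.37 FPKM in the blastema and 4.86 FPKM in the control. The authors' software labelled this gene NOTEST, used for too few reads, and some others of the 42 carried that label as well. The snoRNA genes are far shorter than their hosts and lie inside them, and the part of host intron reads and of the short length in these values was not tested.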
